A study of Mus musculus with 6 samples.

Results

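Capillary endothelial cells of the mouse brain were taken from 6 droplet single-cell RNA libraries and described in the cortex beside the hippocampus. The cells were selected on their own counts. A cell had UMIs for at least 4 of the 6 endothelial genes Cldn5, Pecam1, Flt1, Cdh5, Itm2a and Egfl7 and for at most 1 of the 6 genes of other cells Pdgfrb, Kcnj8, Acta2, P2ry12, Cx3cr1 and Aqp4. It also had UMIs for at least 3 of the 5 capillary genes Slc16a1, Slc38a5, Car4, Slco1a4 and Pglyrp1 and for at most 1 of 10 genes of other vessel segments (Gkn3, Bmx, Vegfc, Sema3g, Fbln2, Fbln5, Ackr1, Lrg1, Ch25h and Apln). A UMI is a barcode that marks 1 captured RNA molecule. The rule found 3870 capillary cells among 33273 barcodes, of which 25961 had passed the filters on gene number and mitochondrial UMIs. The cortical libraries held 2364 of them (775, 822 and 767) and the hippocampal libraries 1506 (512, 518 and 476).

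The cortical group came from wild-type female C57Bl/6J mice at 3 weeks of age, and the hippocampal group from wild-type females of that strain at 5 weeks. In both groups the mice were perfused, the tissue was dissociated for a short time with dispase II, papain and DNase I, and myelin was removed on Percoll, with no sorting. The cells of 3 mice were pooled into 1 suspension per group and run as 3 libraries. The 3 libraries of a group are therefore technical replicates of 1 pool, each SD below is a spread between such libraries, and no test between groups was made. Brain region, age, preparation and the gene annotation of the count tables changed together, so a difference between the groups cannot be assigned to any of them.

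Capillary endothelial cells form the blood-brain barrier. They are sealed by tight junctions, take up few vesicles, and carry glucose, amino acids, lactate, thyroid hormone and lipids through dedicated transporters. Wnt ligands from neural cells keep this barrier programme on. Along the vessel tree, expression changes gradually from arteriole to capillary to venule, so that a capillary class has neighbours on both sides and no sharp edge. In the growing brain new capillaries arise by sprouting, led by tip cells that secrete angiogenic factors and matrix, and followed by dividing cells.

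The median depth of the capillary cells was close in the 6 libraries, whereas the deeper cells were deeper in the cortex. The median UMI count per cell was 6738, 6713.5 and 6716 in the cortex and 6452, 6529 and 6417.5 in the hippocampus, with 2563, 2566.5 and 2573 genes per cell in the cortex and 2670, 2667 and 2654.5 in the hippocampus. The upper quartile was 10503, 10375.5 and 10561.5 UMIs in the cortex and 8602.75, 8668.75 and 8331.75 in the hippocampus. The libraries held 39662203, 41522304 and 42097490 UMIs in the cortex and 50024850, 47800210 and 43963706 in the hippocampus. The capillary cells gave 6586896, 6782026 and 6433961 of these in the cortex and 3797331, 3804288 and 3433939 in the hippocampus. Barcodes found in more than 1 library of a group made up 13 cortical (0.55%) and 4 hippocampal capillary cells (0.266%). Of all barcodes, 83 cortical (0.463%) and 926 hippocampal ones (6.04%) were shared in this way. A doublet caller marked 82 cortical (3.47%) and 34 hippocampal capillary cells (2.26%), which were kept. The share it marks is preset and grows with the number of barcodes in a library. Over all barcodes that passed the filters it was 6.12%, 6.40% and 6.45% in the cortex and 4.11%, 4.09% and 3.68% in the hippocampus.

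The genes of the rule were at these levels in the selected cells, given as CPM, the share of a gene in all summed UMIs of the cells scaled to a common total. Slc16a1, the lactate and ketone transporter MCT1, was at 1576, 1464 and 1542 CPM in the cortex and 1045, 1087 and 999 CPM in the hippocampus. Slc38a5, a glutamine transporter of the venous side of the capillary bed, was at 356, 350 and 342 CPM in the cortex and 327, 377 and 346 CPM in the hippocampus. Car4, a carbonic anhydrase of the luminal membrane, had group levels of 1384 and 1309 CPM, Slco1a4, an organic anion transporter, 2236 and 2863 CPM, and Pglyrp1, a peptidoglycan recognition protein, 1743 and 1313 CPM in cortex and hippocampus. The share of capillary cells with a Slc38a5 UMI was 70.0% in the cortex and 67.2% in the hippocampus, or 50.8% and 51.1% after each cell was thinned to 3000 UMIs. In microglia of these libraries, which should lack the gene, it was 0.277% and 0.271% (0.135% and 0.104% thinned). Shares are means over the 3 libraries of a group, and thinning left out the 170 cortical and 122 hippocampal capillary cells below 3000 UMIs. Microglia had median depths of 5506 and 6643 UMIs.

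The edges of the class lay close to its neighbours. Exactly 3 of the 5 capillary genes were found in 237 cortical (10.0%) and 172 hippocampal capillary cells (11.4%), and exactly 2 in 54 and 45 cells left out. Exactly 1 gene of another segment was found in 606 cortical (25.6%) and 294 hippocampal capillary cells (19.5%), and exactly 2 in 147 and 112 cells left out. Depth moved along these counts. Cells with exactly 1 segment gene had a median of 8699.5 UMIs in the cortex and 7201.5 in the hippocampus, against 6734 and 6469 over all capillary cells.

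Capillary cells made up most of the endothelial cells of both regions. They were 82.2%, 84.3% and 83.6% of the endothelial-gate cells in the cortical libraries and 78.8%, 78.2% and 76.5% in the hippocampal libraries, with means of 83.3% ± 1.08 and 77.8% ± 1.17 (SD, 3 libraries each). The 2 groups of libraries did not overlap. Pooled over libraries, the share was 83.4% in the cortex (exact Clopper-Pearson 95% interval 81.9 to 84.7) and 77.9% in the hippocampus (76.0 to 79.7), a difference of -5.49 percentage points. Such intervals cover counting error only. Cells left out for 2 or more genes of other segments, called segment-marked below, were 14.1%, 13.3% and 13.8% in the cortex and 16%, 17.8% and 19.3% in the hippocampus. Where a cell with any segment gene was left out, the capillary share was 62.0% in the cortex and 62.7% in the hippocampus, and the order turned. Apln, a tip cell peptide among the 10 segment genes, had a UMI in 10.1% of cortical and 1.66% of hippocampal capillary cells. After thinning the shares were 6.14% and 0.434%, beside 0.254% and 0.398% in microglia. Apln is preparation-wide, and astrocytes of the same libraries held 94.8 CPM in the cortex and 40.8 CPM in the hippocampus, so that the part of free RNA in these shares was not tested.

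**Figure D1:**
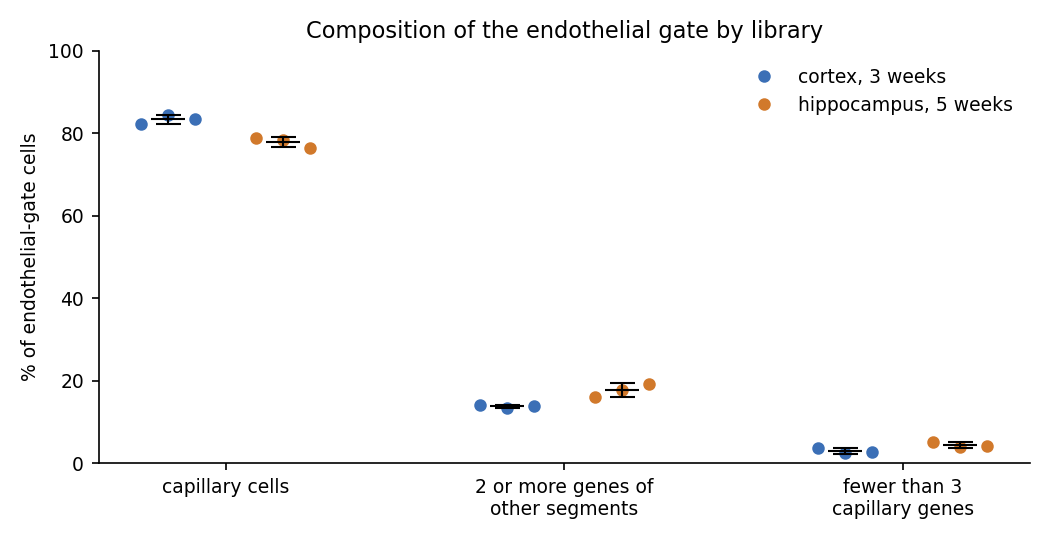
Share of endothelial-gate cells in percent (y axis) that were capillary cells, segment-marked cells or cells with fewer than 3 capillary genes, for each of the 3 cortical and 3 hippocampal libraries (points, blue for the cortex and orange for the hippocampus) with group means and SD as black lines. The cortical capillary shares sit between 82.2% and 84.3%, above the hippocampal ones between 76.5% and 78.8%.

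The name of the class was checked with markers that the rule did not use, as a description within the same cells. All 14 further capillary markers, among them Mfsd2a, the lipid transporter that restrains transcytosis, and Tfrc, the transferrin receptor, were higher in capillary than in segment-marked cells in both regions (median log2 ratio 0.59 in the cortex and 0.76 in the hippocampus). Arterial markers were lower in capillary cells, 16 of 16 in the cortex (median -1.53) and 17 of 17 in the hippocampus (median -1.72). Venous markers were not set apart in this way, with 3 of 11 higher in cortical and 6 of 10 higher in hippocampal capillary cells. Among all genes, Ndnf, a secreted factor, was 233.5 CPM in capillary and 77.4 CPM in segment-marked cells of the cortex, and 362 and 46.5 CPM in the hippocampus. Mgp, a matrix protein of arteries, was 13.8 CPM in capillary and 1240 CPM in segment-marked cells of the cortex, and 12.3 and 1519 CPM in the hippocampus. These values describe the split and were not tested.

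The most abundant RNA was Malat1, a nuclear long noncoding RNA, at 25147 CPM in the cortex and 35736 CPM in the hippocampus. Tmsb4x, an actin-binding peptide, Gm42418, beta globin and mitochondrial genes were also among the first. Of barrier genes, Bsg, the basigin partner of the lactate transporters, was at 20121 CPM in the cortex and 20339 CPM in the hippocampus. Cldn5, the main claudin of the barrier, was at 7976, 8587 and 9058 CPM in the cortex and 8214, 8206 and 8191 CPM in the hippocampus. Mitochondrial genes took 6.00%, 5.84% and 5.69% of the cortical and 5.66%, 5.58% and 5.53% of the hippocampal capillary UMIs. Ribosomal protein genes took 11.6%, 10.8% and 10.7% in the cortex and 8.89%, 8.84% and 8.78% in the hippocampus. Within the cortex, Rpl38 was 5799, 3709 and 2816 CPM and Rps29 5432, 3692 and 2583 CPM, a spread that the hippocampal libraries did not have.

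Red cell RNA differed between libraries. Hbb-bs, adult beta globin, was 10709, 21025 and 27056 CPM in the cortical capillary cells and 2575, 2592 and 3.79 CPM in the hippocampal ones. All globin genes together took 1.74%, 3.36% and 4.51% of cortical and 0.496%, 0.470% and 0.001% of hippocampal UMIs. Myelin RNA went the other way, with Cldn11, a claudin of the myelin sheath, at 0.152, 0.148 and 0 CPM in the cortex and 92.8, 8.42 and 66.7 CPM in the hippocampus. Microglia and astrocytes of the same libraries showed the same directions, with Cldn11 at 0.748 and 118 CPM in microglia. Such genes were set apart as preparation-wide, meaning that they differed at least 2-fold the same way in microglia or astrocytes at a level of at least 25% of that in capillary cells.

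Expression was compared over 11201 genes that both annotations listed and that had at least 50 UMIs in the capillary cells. The log2 ratio was hippocampus over cortex with 1 CPM added to both sides, its 95% interval was the exact conditional Poisson interval without the added CPM, and a gene was called where the ratio reached a set fold and the 3 libraries of one group were all above those of the other. The median over all genes was 0.18, so a ratio near 0.18 is no shift against the bulk of genes. At 2-fold, 270 genes (2.41%) were higher in the hippocampus and 203 (1.81%) in the cortex, or 138 and 103 with 5 CPM added. With median-of-ratios size factors, which bring the median to 0.01, the counts were 188 (1.68%) and 274 (2.45%), and the hippocampal part of the calls went from 57.1% to 40.7%. All 188 and all 203 were among the calls of both scalings. Of the 2-fold calls, 151 and 95 were preparation-wide, which left 119 higher in the hippocampus and 108 higher in the cortex. In the hippocampus-higher set 30 genes shared an exon with a gene listed for the cortex only, against 2 in the cortex-higher set.

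The genes with the highest ratios outside the preparation-wide set and the annotation overlaps were Slfn2, Fmo2, Alpl, Erg and Ifit3b. Erg, the ETS factor that keeps endothelial identity, was 28.9, 34.3 and 34.6 CPM in the cortex and 138, 148 and 145 CPM in the hippocampus. No library of one group came near the other, and the log2 ratio was 2.11 (2.01 to 2.27). An Erg UMI was found in 20.4% of cortical and 55.1% of hippocampal capillary cells (8.66% and 31.4% thinned), and in 0 and 0.085% of microglia. Slfn2, an interferon-inducible Schlafen gene, was 5.48, 5.02 and 6.54 CPM in the cortex and 58.8, 58.4 and 63.2 CPM in the hippocampus, a log2 ratio of 3.19 (3.11 to 3.71). Microglia had 58.6 and 55.0 CPM of Slfn2, without the difference. Fmo2, a flavin monooxygenase (2.27), Alpl, tissue alkaline phosphatase (2.25), Ifit3b, an interferon-induced gene beside Ifit3 (2.05), Gm9946 (1.91), Ifit3 (1.66), Hspa1a, the inducible heat shock protein (1.66), Gm12216 (1.64) and Xdh, xanthine dehydrogenase (1.63), followed by log2 ratio. Ifit3 and Ifit3b are close copies, so reads may be split between them. Segment-marked endothelial cells had the same direction for the genes named in this paragraph. In cortex and hippocampus they held 39.4 and 137 CPM of Erg and 11.9 and 76.5 CPM of Slfn2.

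The remaining names of that direction overlapped genes listed for one group only or were preparation-wide. Gm45837, the cortical symbol of an identifier listed as Pde2a for the hippocampus, had no UMI in the cortex and 157, 170 and 156 CPM in the hippocampus, and it overlaps a Pde2a entry listed for the cortex only. Ctla2b (log2 ratio 2.00) overlaps Gm49391 and Gm49392, which were listed for the cortex only. In the preparation-wide set Gm49342 overlaps Pnp and Tonsl overlaps Vps28, both again listed for the cortex only, and Cldn11 and Ptgds were lowest in hippocampal replicate 2, the library with the least myelin RNA of that group. Whether gene models that were listed in both annotations differed in extent was not tested for single genes.

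The 12 genes named for the cortex included transcription factors, matrix genes and genes of protrusion and division. Foxl2, a forkhead factor, was 61.0, 62.8 and 65.4 CPM in the cortex and 1.05, 1.32 and 0 CPM in the hippocampus, with a log2 ratio of -5.14 (-7.40 to -5.34). Fbxl7, an F-box protein, was 46.9, 54.7 and 54.7 CPM in the cortex and 0.527, 0.526 and 0.291 CPM in the hippocampus (-5.19). Zfp366, a zinc finger factor, was 155, 151 and 148 CPM in the cortex and 20.3, 17.6 and 15.7 CPM in the hippocampus, a log2 ratio of -3.01 (-3.29 to -2.87). The genes named here for the cortex were lower in the hippocampus in segment-marked endothelial cells too. In cortex and hippocampus these held 46.4 and 1.16 CPM of Foxl2, 123 and 17.9 CPM of Zfp366 and 93.6 and 0.578 CPM of Fbxl7. Microglia and astrocytes had under 1 CPM of Zfp366 and Foxl2. Other genes named here were also lower in the hippocampus in those cells, with Fbxl7 at 5.84 and 0.091 CPM in astrocytes, Dgkh at 6.79 and 1.13 CPM in microglia, Ctgf at 9.82 and 0.731 CPM in astrocytes and Rapgef5 at 127 and 70.9 CPM in microglia of cortex and hippocampus. Lamb1, Cdk1 and Fscn1 went the other way in astrocytes, with log2 ratios of 1.71, 2.06 and 1.46. Lamb1, a laminin chain (-2.81), Igfbp3, a binding protein of insulin-like growth factors (-2.74), Dgkh, a diacylglycerol kinase (-2.71), Cdk1, the mitotic kinase (-2.33), Fscn1, an actin bundler of protrusions (-2.01), Ctgf, connective tissue growth factor (-1.94), Adm, the vasoactive peptide adrenomedullin (-1.81), Rapgef5, an exchange factor of Rap (-1.77), and Gm5 (-1.72) followed. Preparation-wide in the same direction were Ccdc152, Kctd17, Alas2, which is also an RNA of red cells, and Timm8a1.

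Groups of genes were described at 1.5-fold, a size that 8.7% of all genes reached towards the hippocampus and 3.72% towards the cortex. These shares were 4.6% and 5.58% with median-of-ratios size factors, so their order turned, and the counts of list members at that scaling are to be read against these. Of the 19 gene lists, the interferon and MHC class I genes had the highest median. Of 27 measured members, 20 were called higher in the hippocampus and 1, Cd74, higher in the cortex, with a median log2 ratio of 0.80 against 0.18 for all genes. With median-of-ratios size factors the count was 15 and the median 0.62.

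The presenting molecules of this group are given first, although its highest ratio was that of Ifit3 (1.66). H2-K1, a classical class I heavy chain, was 272, 241 and 251 CPM in the cortex and 621, 578 and 562 CPM in the hippocampus, a log2 ratio of 1.21 (1.16 to 1.26). H2-D1, the other classical chain, went from 517 to 947 CPM (0.87), and B2m, their shared light chain, from 617, 508 and 491 CPM to 835, 804 and 808 CPM (0.60). Peptide supply followed, with the transporter Tap1 at 0.67, its partner Tapbp at 0.89 and the immunoproteasome subunits Psmb8 and Psmb9 at 0.80 and 0.82. Every one of these was called, though B2m and Tap1 were not with median-of-ratios size factors.

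Interferon-stimulated effectors and factors were also called. Ifit3, an antiviral effector, was 22.98, 28.22 and 25.23 CPM in the cortex and 88.5, 79.2 and 81.0 CPM in the hippocampus. Isg15, a ubiquitin-like modifier, was 217, 233 and 239 CPM in the cortex and 422, 423 and 387 CPM in the hippocampus (0.84). Irf7, the factor that amplifies type I interferon, was 51.0, 52.0 and 47.6 CPM in the cortex and 113, 124 and 105 CPM in the hippocampus (1.17). In all of them the lowest hippocampal library was above the highest cortical one. Ifitm3, a membrane protein that blocks virus entry, went from 828 to 1475 CPM, and Ly6a from 1612 to 2809 CPM. Ifit1 and Ifi27 were among the genes not called with median-of-ratios size factors. Ly6c1 (0.07), H2-T23 (0.29), Ifitm1 (0.38), Bst2 (0.42), Ly6e (0.45) and Ifitm2 (0.55) were not called. Cd74, the class II invariant chain of immune cells, was 8.06, 0.591 and 22.9 CPM in the cortex and at most 0.583 CPM in the hippocampus.

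For Irf7, Ifit3 and H2-K1 the share of cells with a UMI moved as the sums did. Irf7 was found in 29.9% of cortical and 43.3% of hippocampal capillary cells (14.3% and 25.7% thinned), and in 2.801% and 2.438% of microglia (1.72% and 1.21% thinned). Ifit3 was found in 12.7% and 26.5% (5.82% and 16.9% thinned), beside 2.73% and 3.53% in microglia (1.66% and 1.77% thinned). H2-K1, which microglia express, was found in 68.8% and 86.9% of capillary cells (45.4% and 71.8% thinned) and in 78.2% and 82.2% of microglia (61.1% and 60.3% thinned).

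The same group was set beside other cells of the same libraries. In segment-marked endothelial cells 17 of 27 genes were called higher in the hippocampus (median log2 ratio 0.65), where 7.64% of all genes were. In astrocytes it was 14 of 23 (0.86), where 22.8% of all genes were called in that direction. In microglia it was 1 of 27 (0.15), where 9.44% of all genes were. Whether the classes differ in this respect was not tested. Microglial RNA among the capillary cells was itself higher in the hippocampus, with 10 of 14 markers called (median 0.83). Among them, Tmem119 was at 1.57 and 3.45 CPM in cortex and hippocampus, while P2ry12 and Cx3cr1 are held low by the rule itself. In microglia H2-K1 was at 375 and 371 CPM and Irf7 at 6.24 and 5.67 CPM. The part of microglial RNA in the interferon difference was not tested.

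**Figure D2:**
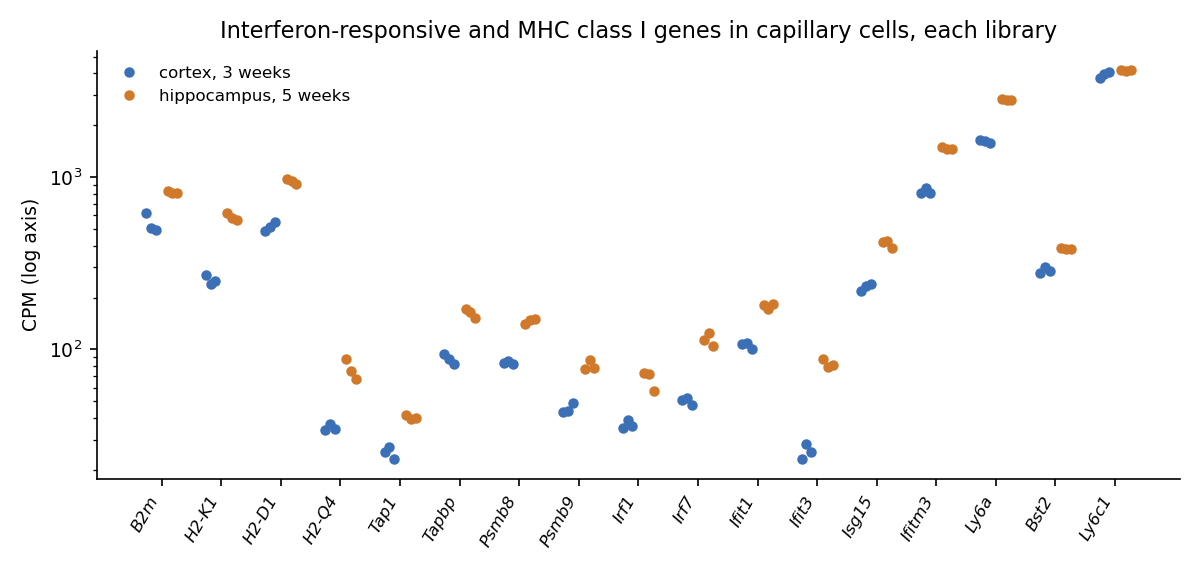
Levels of 17 interferon and MHC class I genes in capillary cells, as CPM on a log axis, with the 3 cortical libraries in blue and the 3 hippocampal libraries in orange for each gene (points). The hippocampal points lie above the cortical points, as for H2-K1 (562 to 621 against 241 to 272 CPM), and the gap closes for Ly6c1 (4115 to 4171 against 3762 to 4082 CPM).

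Sequence just before the start of 3 called genes shows the element that interferon factors are known to bind, and it is given because these genes moved together. The letters searched were a pair of GAAA runs with any 2 bases between them, on both strands, in windows from 250 bases before to 50 bases after the start in the RefSeq annotation of GRCm38.p6. Of the 27 genes 21 were in that table, and 9 of them (42.9%) had a match, against 1079 of 27025 genes (3.99%) in all. Matches stood in 6 of 16 called genes and in 3 of 5 that were not called. A match is a run of letters, not a measured site. The 160 bases before each start are written 5′ to 3′ on the strand of the gene, with the matches in capitals, and come from chr2:122147527-122147686 (plus strand) for B2m, chr19:34583369-34583528 (plus strand) for Ifit3 and chr4:156200819-156200978 (minus strand) for Isg15.
B2m: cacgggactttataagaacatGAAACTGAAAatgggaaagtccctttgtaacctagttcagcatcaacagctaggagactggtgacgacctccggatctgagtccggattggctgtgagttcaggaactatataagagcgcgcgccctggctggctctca
Ifit3: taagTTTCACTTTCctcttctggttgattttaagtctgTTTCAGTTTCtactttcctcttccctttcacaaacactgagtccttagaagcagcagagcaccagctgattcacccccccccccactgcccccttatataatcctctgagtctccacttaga
Isg15: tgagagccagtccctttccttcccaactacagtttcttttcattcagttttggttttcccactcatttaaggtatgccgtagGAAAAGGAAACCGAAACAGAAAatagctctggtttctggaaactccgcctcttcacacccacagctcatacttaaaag
The B2m stretch holds 1 match, the Ifit3 stretch 2 in the reverse reading and the Isg15 stretch 3 that overlap. These 3 were chosen because they hold a match, and other called genes given above by library, H2-K1 and Irf7, had none in their windows.

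Tip cell and angiogenic genes had the lowest median of the 19 lists. Of 12 measured members, 9 were called higher in the cortex and none higher in the hippocampus, with a median log2 ratio of -1.26. Ligands were among the called genes. Adm was 112, 114 and 109 CPM in the cortex and 33.47, 24.99 and 34.97 CPM in the hippocampus, a log2 ratio of -1.81 (-2.01 to -1.68). Angpt2, which loosens the contact of endothelium with pericytes, was 34.2, 34.9 and 28.8 CPM in the cortex and 12.1, 8.68 and 13.4 CPM in the hippocampus (-1.45). All cortical libraries were above all hippocampal ones for both genes. Among receptors, Aplnr, the receptor of apelin, was called (86.1 and 56.7 CPM), and Kdr, the main VEGF receptor, was not (774 and 744 CPM). The matrix genes Lamb1 (39.7, 47.0 and 40.3 CPM against 5.01, 4.47 and 6.12 CPM) and Nid2, a nidogen (76.7, 78.2 and 68.5 CPM against 30.8, 31.0 and 33.5 CPM), the urokinase receptor Plaur (-0.87), the adhesion molecule Mcam (-1.32), Trp53i11 (-1.31) and the actin-binding Cotl1 (-1.18) were called as well. Cd34 was at 0.22 and Pgf, with 1.37, 0.148 and 7.01 CPM in the cortex and at most 0.583 CPM in the hippocampus, at -1.57, and neither was called.

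The group was smaller once cells with Apln RNA were left out. Apln was 1 of the segment genes, of which a cell may have 1, and it was 82.3, 86.7 and 61.5 CPM in the cortex and 9.75, 2.63 and 8.16 CPM in the hippocampus, while being preparation-wide through astrocytes. None of the 12 measured members of the list is preparation-wide. Without the 239 cortical and 25 hippocampal capillary cells with an Apln UMI, 5 of the 12 genes were called (Adm, Plaur, Lamb1, Cotl1 and Nid2) and the median was -0.38. Without cells with any segment gene, 4 were called (Adm, Plaur, Lamb1 and Nid2) and the median was -0.30. Adm had a UMI in 27.4% of cortical and 11.5% of hippocampal capillary cells (15.9% and 6.68% thinned), and in 0.148% and 0.199% of microglia. In segment-marked cells 6 of 11 of the genes were called higher in the cortex (median -1.13), where 3.89% of all genes were, whereas the median was 0.21 in microglia and 0.44 in astrocytes.

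**Figure D3:**
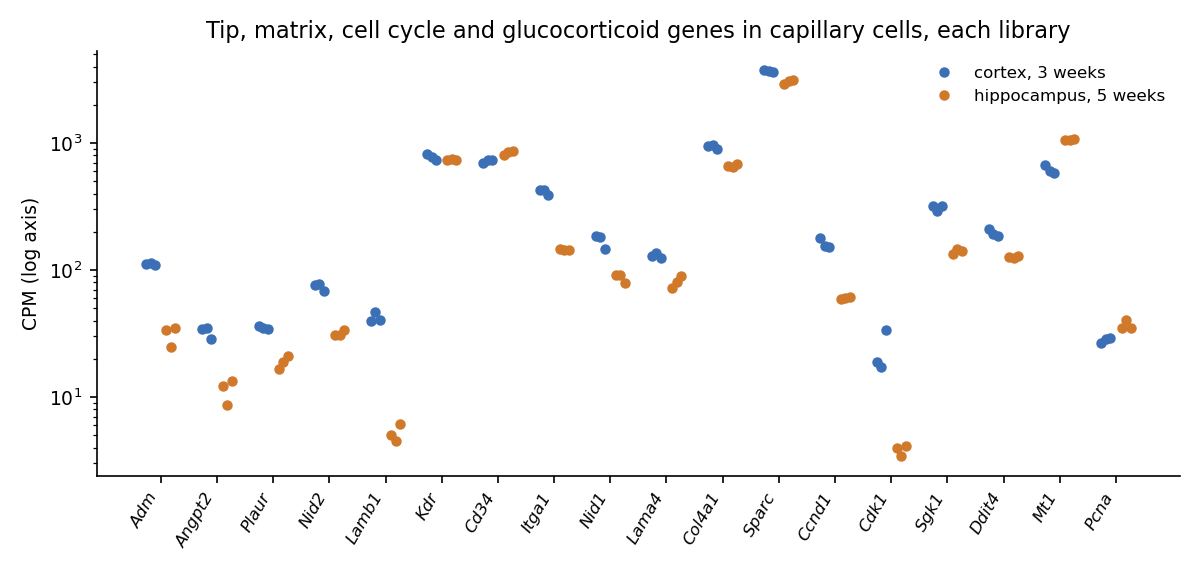
Levels of tip cell, matrix, cell cycle and glucocorticoid-responsive genes in capillary cells, as CPM on a log axis, with the 3 cortical libraries in blue and the 3 hippocampal libraries in orange for each gene (points). The cortical points of Lamb1 (39.7 to 47.0 CPM) and Adm (109 to 114 CPM) lie above the hippocampal points (4.47 to 6.12 and 24.99 to 34.97 CPM), while those of Kdr overlap.

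Cell cycle genes were higher in the cortex for 9 of 23 members and higher in the hippocampus for 1, with a median log2 ratio of -0.46. Top2a, the topoisomerase of dividing cells, was 10.0, 1.48 and 23.4 CPM in the cortex and 0.527, 0.263 and 0 CPM in the hippocampus, so that the cortical libraries differed widely among themselves. Cells with several genes of dividing cells were few. At least 3 of 8 genes of dividing cells had a UMI in 13 of 2364 cortical capillary cells (5, 1 and 7 by library; 0.55%, exact 95% interval 0.293 to 0.939) and in 0 of 1506 hippocampal ones, where the upper bound was 0.245%. After thinning the counts were 10 of 2194 (0.456%, exact 95% interval 0.219 to 0.837) and 0 of 1384, where the upper bound was 0.266%. The thinned cortical interval reached below that bound. Without the 13 cells, Top2a, Cdk1, Ube2c and Ccnd1 stayed called and the median was 0.05. Single genes were found in more cells. Cdk1 had a UMI in 11.5% of cortical and 2.52% of hippocampal capillary cells (4.84% and 1.59% thinned), and in 5.30% and 3.21% of microglia. For Ccnd1 these shares were 43.9% and 23.5% (25.8% and 13.9% thinned), and 26.5% and 49.1% in microglia. Ccnd1, the cyclin of growth factor signals, was 180, 155 and 153 CPM in the cortex and 59.0, 60.5 and 61.2 CPM in the hippocampus (-1.42). In microglia the order was the other way, with 0.016% and 0.331% of cells passing the same count. In segment-marked cells 6 of 20 list genes were called higher in the cortex and 1 in the hippocampus (median -0.62). Of all genes 3.89% and 7.64% were. The list median was 0.36 in microglia and 1.68 in astrocytes.

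Basement membrane genes were lower in the hippocampus for 6 of 29 members and higher for 2, with a median of -0.16, or 9 and 1 with median-of-ratios size factors. The alpha chains of collagen IV, the main network, did not reach 1.5-fold without that scaling, with Col4a1 at 947, 962 and 893 CPM in the cortex and 664, 643 and 685 CPM in the hippocampus (-0.49) and Col4a2 at -0.54. Laminin and nidogen chains did, with Lama4 at -0.68, Lamc1 at -0.59 and Nid1 at -0.96 beside Lamb1 and Nid2. Itga1, a collagen-binding integrin, was 424, 423 and 391 CPM in the cortex and 145, 143 and 143 CPM in the hippocampus (-1.51), and shares an exon with Gm49395, a gene listed for the cortex only. Higher in the hippocampus were Timp3, an inhibitor of matrix proteases (106 and 249 CPM), and Mmrn2, a ligand of Cd93 (78.9 and 131 CPM). In segment-marked cells 9 of 29 list genes were called lower in the hippocampus and 1 higher (median -0.20). Of all genes 3.89% and 7.64% were. The list median was 0.05 in microglia and 0.04 in astrocytes.

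The barrier machinery was described by junctions, carriers and vesicle genes. None of 22 junction genes was called, though Jam3, an adhesion molecule of junctions, had a ratio of 0.67 with overlapping libraries, and their median of 0.21 (0.20 without 3 genes of the rule) was near that of all genes. Ocln, occludin, was 302, 322 and 330 CPM in the cortex and 376, 369 and 348 CPM in the hippocampus (0.20), and Tjp1, the ZO-1 scaffold, 533, 565 and 498 CPM and 531, 551 and 551 CPM (0.03). Of 39 solute carriers and pumps, 2 were called higher in the hippocampus and 2 higher in the cortex (median 0.06), or 1 and 4 with median-of-ratios size factors (median -0.12). The list holds 3 genes of the rule, and its median without them was 0.08. The values with median-of-ratios size factors include these genes, and the rule gene Slc16a1 is among the 4. The ones called without that scaling were low in level or preparation-wide, namely Slc16a12, Slc19a1, Slc38a2 and Slc29a4. The abundant transporters moved by less than 1.5-fold in both directions, except that Slc16a1, a gene of the rule (-0.55), passed it with median-of-ratios size factors. Slc2a1, the glucose transporter GLUT1, was 1864, 1910 and 2004 CPM in the cortex and 1646, 1598 and 1610 CPM in the hippocampus (-0.25). Abcb1a, the efflux pump P-glycoprotein, was 875, 870 and 897 CPM in the cortex and 1239, 1163 and 1139 CPM in the hippocampus (0.42). Slc6a6, the taurine transporter (0.49), and the rule gene Slco1a4 (0.36) were on the same side as Abcb1a, and Mfsd2a (-0.30) on that of Slc2a1.

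Of 17 genes of transcytosis and caveolae, 4 were called higher in the hippocampus, namely Cavin1, Cav2, Ehd2 and Lepr (median 0.27), of which Lepr and Cav2 are preparation-wide. With median-of-ratios size factors 2 were called, Lepr and Ehd2, and 1 was called higher in the cortex. Cavin1, a coat protein of caveolae, was 212, 213 and 208 CPM in the cortex and 349, 326 and 339 CPM in the hippocampus (0.68). Cav1, the caveolin that coats need, was at 279 and 333 CPM (0.26), and Tfrc at 623 and 483 CPM (-0.37), both short of 1.5-fold.

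Among 33 Wnt pathway genes and barrier transcription factors, 3 were called higher in the hippocampus (Erg, Reck and Axin2) and 1 higher in the cortex (Foxl2), with a median of 0.12 that was -0.06 with median-of-ratios size factors. Reck, a part of the receptor complex for Wnt7, was 28.3, 27.8 and 26.5 CPM in the cortex and 64.8, 58.4 and 56.5 CPM in the hippocampus (1.10). Axin2, a feedback target of Wnt, was 62.1, 59.4 and 61.2 CPM and 96.4, 91.0 and 90.3 CPM (0.60). Other targets and factors stayed nearer to the median, with Lef1 at 0.30, Foxq1 at 0.52, Foxf2 at 0.13 and Sox17 at 0.24, and the receptor Fzd4 was at -0.38. In the VEGF, Tie and Notch list (median 0.06, 0.02 without 1 gene of the rule, or -0.11 with median-of-ratios size factors) 2 of 26 were called higher in the hippocampus, Nrp1 (267 and 499 CPM, preparation-wide) and Tie1 (214 and 339 CPM), and 3 higher in the cortex, Angpt2, the Notch ligand Jag2 (106 and 52.7 CPM) and the Notch target Hey1 (68.4 and 41.9 CPM). None of 17 genes of the TGF-beta and BMP list was called (1 with median-of-ratios size factors), and the one with the largest ratio, Id1, was at 1830 and 1294 CPM (-0.50).

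**Figure D4:**
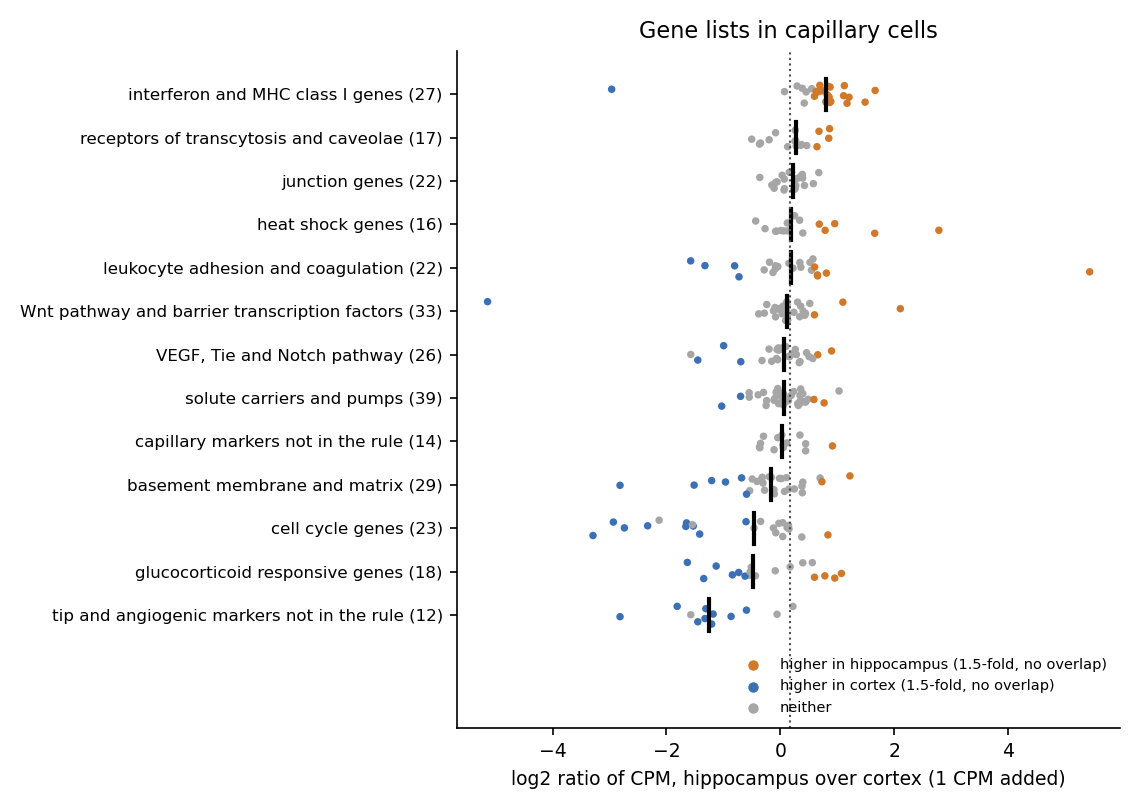
Log2 ratio of CPM, hippocampus over cortex, for each measured gene (points) of 13 gene lists in capillary cells, with list medians as black bars and the median of all genes, 0.18, as a dotted line. Orange and blue points are genes called higher in the hippocampus and in the cortex at 1.5-fold. The interferon list (median 0.80) lies to the right of the line and the tip cell list (median -1.26) to the left, while most junction and transporter genes lie close to it.

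Genes that respond to handling and hormones had members in both directions. Of 18 glucocorticoid-responsive genes 6 were called higher in the cortex and 4 in the hippocampus (median -0.47), or 9 and 2 with median-of-ratios size factors. In astrocytes 8 of 17 were called higher in the cortex and 2 in the hippocampus (median -0.50). In microglia it was 5 and 1 of 15 (-0.23), and in segment-marked cells 3 and 1 of 15 (-0.13). Of all genes, 6.09%, 2.62% and 3.89% were called higher in the cortex in these 3 classes. Sgk1, a kinase induced by glucocorticoids, was 317, 293 and 319 CPM in the cortex and 135, 147 and 142 CPM in the hippocampus (-1.13), while the metallothioneins Mt1 (619 and 1065 CPM) and Mt2 (125 and 243 CPM) went the other way. Of 16 heat shock genes 5 were called higher in the hippocampus (median 0.19). Hspa1a was 66.9, 46.5 and 74.0 CPM in the cortex and 199, 213 and 181 CPM in the hippocampus, Hspb1, a small heat shock protein, was at 717 and 1152 CPM, and Cryab, with 59.3, 8.94 and 67.6 CPM in the hippocampus, had the library order of the myelin genes. Of 26 immediate early genes 2 were called in each direction (median 0.18), Fos (37.4 and 61.5 CPM) and Zfp36l1 towards the hippocampus, Dusp6 and Ctgf towards the cortex. With median-of-ratios size factors none was called towards the hippocampus and 3 towards the cortex (median 0.00).

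Of 22 genes of leukocyte adhesion and coagulation 5 were called higher in the hippocampus and 4 higher in the cortex (median 0.18), or 2 and 4 with median-of-ratios size factors. Thbd, the anticoagulant thrombomodulin, was 107, 107 and 91.7 CPM in the cortex and 177, 177 and 186 CPM in the hippocampus (0.81), and Podxl, a sialomucin of the lumen, was at 272 and 428 CPM. Icam1, a leukocyte ligand, was at 46.4 and 27.7 CPM (-0.73). Ptgds was among the 5 and is preparation-wide. Among 19 genes of lipid and vitamin handling, 2 were called higher in the cortex, among them Lpl, lipoprotein lipase, and none the other way (median -0.02). Of 19 glycolysis genes only Pgk1 was called (3 with median-of-ratios size factors), at 68.8 CPM in the cortex and 7.62 CPM in the hippocampus. Pgk1 is preparation-wide, at 62.2 and 5.69 CPM in microglia.

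Zonation markers outside the rule were compared between the regions as well. Of the 14 capillary markers 1 was called, Itih5 (254 and 479 CPM), and the median was 0.04, or -0.15 with median-of-ratios size factors. Of 16 arterial markers 5 were called higher in the hippocampus, Alpl, Stmn2, Crip1, Eln and Tm4sf1, and 1, Hey1, higher in the cortex (median 0.22), or 3 and 1 with median-of-ratios size factors. Stmn2 is a neuronal gene too, and it was 3.50, 2.51 and 1.56 CPM in the cortex and 12.1, 11.3 and 13.1 CPM in the hippocampus. Of 12 venous markers 3, Icam1, Il1r1 and Lcn2, were called higher in the cortex (median -0.21).

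RNA of other cells was present at low or uneven levels, and its part in the differences was not tested. Summed over 10 oligodendrocyte markers, capillary cells held 343, 368 and 369 CPM in the cortex and 1968, 511 and 1582 CPM in the hippocampus, with Mal, which the endothelium also carried at 330.0 CPM in the cortex, as the most abundant. Over 16 astrocyte markers the sums were 2025, 2472 and 2317 CPM and 1516, 1842 and 2168 CPM (Apoe most abundant). Over 16 microglial markers they were 2449, 2596 and 2593 CPM and 2444, 2709 and 2652 CPM (Cst3 most abundant). Cst3 alone was 2419 of 2546 CPM in the cortex and 2358 of 2600 CPM in the hippocampus. The near equal sums thus reflect Cst3, while 10 of 14 microglial markers were called higher in the hippocampus. Over 14 pericyte markers they were 436, 472 and 412 CPM and 478, 452 and 540.3 CPM (Rgs5). Over 10 smooth muscle markers they were 469, 174 and 163 CPM and 336, 351 and 315 CPM (Crip1), and Acta2 was 105 CPM in cortical replicate 1 against 1.18 and 2.65 CPM in the others. Choroid plexus markers were at 54.5, 56.7 and 151 CPM and 358, 477 and 249 CPM (Ttr), with Prlr at 0 in the cortex, neuronal ones at 12.02, 11.08 and 9.34 CPM and 34.3, 62.3 and 23.3 CPM (Stmn2), and fibroblast ones at 9.89, 2.66 and 2.803 CPM and 16.6, 11.05 and 24.5 CPM, with Lum, Dpt and Col6a1 at 0 in both. The 7 red cell markers summed to 17536, 33768 and 45328 CPM and 5028, 4741 and 50.4 CPM (Hbb-bs).

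Capillary cells also varied among themselves, and Slc38a5 was used to describe that variation. Cells thinned to 3000 UMIs were split by whether they had a Slc38a5 UMI, which 50.9%, 52.1% and 49.4% had in the cortical and 47.6%, 54.0% and 51.8% in the hippocampal libraries. The 5 capillary genes of the rule were left out, 5 CPM were added, and 5927 genes were compared. Of these, 295 were higher and 223 lower with Slc38a5 in 6 of 6 libraries, and 19 and 25 of them by at least 1.5-fold. The values describe a split made on the same cells.

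By list medians the venous side went with Slc38a5 and the arterial side against it, though single markers departed from this. Venous markers had a median log2 ratio of 0.74 ± 0.16 in the cortex and 0.77 ± 0.12 in the hippocampus (11 genes; SD over 3 libraries), arterial markers -0.32 ± 0.14 and -0.45 ± 0.01 (13 genes), capillary markers 0.05 ± 0.06 and 0.16 ± 0.08 (14 genes) and tip cell markers -0.05 ± 0.16 and -0.08 ± 0.17 (10 genes). Vcam1, a leukocyte receptor of venules, was 33.0 CPM with and 11.1 CPM without Slc38a5 in the cortex, and 48.996 and 11.8 CPM in the hippocampus. Nr2f2, the factor COUP-TFII of venous identity, was 92.6 and 44.9 CPM in the cortex and 58.4 and 34.0 CPM in the hippocampus. Hey1, the arterial Notch target, was 44.9 CPM with and 112 CPM without Slc38a5 in the cortex and 23.6 and 73.0 CPM in the hippocampus. All 3 kept their direction in 6 of 6 libraries. The arterial marker Eln was higher with Slc38a5, with log2 ratios of 0.27 in the cortex and 0.49 in the hippocampus. Among the other arterial markers, Edn1 was at 0.02 and 0.03 and Mgp at 0.41 and -0.45. The venous marker Icam1 was at -0.83 in hippocampal replicate 3. Cxcl12, a chemokine counted among the capillary markers, was 1936 CPM with and 3733 CPM without Slc38a5 in the cortex and 2040 and 3549 CPM in the hippocampus, and so lay on the arterial side. Wnt5a, Flrt2, Ndnf and Vwf were higher with Slc38a5, and Unc5b, Cdkn1c, Clu and Slc1a3 were lower, in 6 of 6 libraries. Globin RNA was lower too, with Hba-a1 at 1732 and 4981 CPM in the cortex and 151 and 362 CPM in the hippocampus. Slc1a3 and Clu are also astrocyte genes, and the part of free RNA in this split was not tested.

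**Figure D5:**
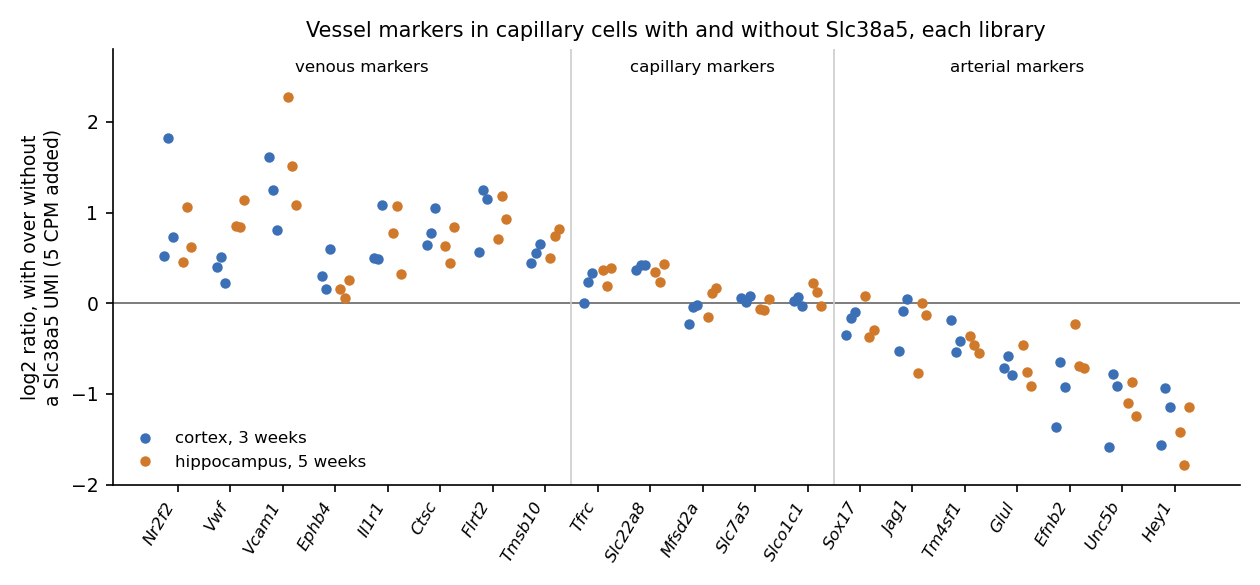
Log2 ratio of capillary cells with a Slc38a5 UMI over those without, for venous, capillary and arterial marker genes (x axis), with 1 point per library in blue for the cortex and in orange for the hippocampus (cells thinned to 3000 UMIs, 5 CPM added). The venous gene Vcam1 lies above 0 and the arterial gene Hey1 below 0 in all 6 libraries, and 5 of the 14 capillary genes are drawn, which lie between -0.23 (Mfsd2a) and 0.43 (Slc22a8). Among those not drawn, Cxcl12 and Rgcc lay below 0 and Itih5 above 0 in all 6 libraries. Venous and arterial markers are also drawn in part, and Icam1, Eln, Edn1 and Mgp are left out.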

How the data were processed

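Single-cell RNA was measured in 6 droplet libraries, 3 of cortex and 3 of hippocampus. The authors deposited UMI counts per gene and barcode, not normalized. The submitters' processing notes name Cell Ranger 5.0.1 and mm10, while the matrix headers name Cell Ranger 3.0.1 (cortex) and 3.1.0 (hippocampus). The groups list 31053 and 27998 gene identifiers, of which 27514 are in both and were compared. A barcode was kept if it had 250 to 6000 genes and its mitochondrial share was below 15%. UMIs were summed per library and divided by the library's sum over shared identifiers (CPM). With 1 pooled suspension a group no test was made, so no replicate block or count model was fitted. Intervals are 95% and cover counting error only. Shares were also computed after thinning cells to 3000 UMIs. Doublets were called by scanpy 1.11.5 (Scrublet) at 0.8% per 1000 barcodes and kept, with their removal as an alternative. The 12 genes with the largest log2 ratio in each direction at 20 CPM or more, without overlap of libraries and not preparation-wide, are named, with 5 preparation-wide genes apart, the genes of the rule, the most abundant genes and examples of each list. Lists and cells were chosen with earlier results of these data known. Some genes that this rule or a list names are not reported here. Calling was tested on simulated counts with counting error only. As these had no spread between libraries or preparations, they cannot give the rate of false calls between pools. Alternatives covered the filters, the rule's limits, leaving out a library, scaling, the added CPM and the low-count filter. Those without globin genes, Gm42418, cells with Apln and dividing cells were chosen after seeing the data. Analyses used Python 3.11.15, numpy 2.4.6 and scipy 1.17.1.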

Additional observations from a re-analysis of the deposited data

Results flagged for a closer look

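Some UMIs of capillary cells fell on gene identifiers that only one annotation lists, which the comparison of the regions did not use. In the cortex these were 0.200% of all UMIs of the cells, led by Cebpd at 389 CPM, AC160336.1 at 336 CPM, Pnp at 135 CPM and Vps28 at 134 CPM. In the hippocampus they were 0.0666%, led by Gm21092 at 94.3 CPM and Gm6483 at 71.2 CPM. Cebpd is an acute-phase transcription factor, and its level in the hippocampal cells was not analysed here.

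Of 351 list genes compared in capillary and in segment-marked endothelial cells, 7 had all libraries apart in opposite directions. These differences between the cell classes were not tested. Of the 7, Eln, Cyr61 and Cd74 (3 genes) remained so with median-of-ratios size factors, and the capillary ratios of Nkd1, Slc39a10 and Slc19a3, which lie below the median of all genes (0.18), turned to -0.07, -0.07 and -0.04. The log2 ratio of hippocampus over cortex in capillary and segment-marked cells was 0.71 and -1.07 for Eln, the elastin of arteries, -0.31 and 1.07 for Cyr61, a matrix signal of the CCN family, and -0.51 and 0.35 for Dusp1, a phosphatase of stress kinases. It was 0.11 and -0.51 for Nkd1, a Wnt inhibitor, 0.14 and -0.32 for Slc19a3, a thiamine transporter, and 0.11 and -0.19 for the zinc transporter Slc39a10. It was -2.96 and 5.84 for Cd74, whose cortical level in capillary cells ranged from 0.591 to 22.9 CPM between libraries.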

How the results depend on the processing

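No paired analysis was possible because the results come from no test and the library numbers mark runs of 1 pool. A value counts as kept here when it moved by less than 1 SD between libraries, and a count of genes when it stayed within 1.5 times. Of the comparison values under all alternatives 94 were kept in this sense, 14 moved and 2 reversed. The kept ones include the counts of 188 and 274 with median-of-ratios size factors, which turn the order of 270 and 203. Without cells that had any segment gene, the capillary share was 62.0% in the cortex and 62.7% in the hippocampus, and the difference reversed to 0.679 percentage points. With at least 4 capillary genes the shares were 75% and 69.0%, without any gene of other cells 84.7% and 79.6%, and after thinning the hippocampal share was 79.9%. Leaving out 1 library gave 82.9% to 83.9% in the cortex, 77.4% to 78.5% in the hippocampus and differences of -6.07 to -4.85 points, and 250 to 289 and 181 to 227 genes at 2-fold higher in hippocampus and cortex. With 5 CPM added these counts were 138 and 103, and without a low-count filter 361 and 245. Without globin genes they were 248 and 218, without globin genes and Gm42418 242 and 224, without called doublets 220 and 199, and without cells with Apln 263 and 158.

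In the split by Slc38a5 without thinning, the medians were 1.27 and 1.11 for venous markers and -0.53 and -0.47 for arterial markers in cortex and hippocampus, and those of capillary markers were -0.0817, a reversal, and 0.0409. Leaving out 1 library gave 0.68 to 0.83 and 0.73 to 0.84 for venous, -0.40 to -0.28 and -0.46 to -0.45 for arterial and 0.02 to 0.08 and 0.12 to 0.20 for capillary markers. Of the list medians 567 were kept, 41 moved and 8 reversed, where only medians at least 0.1 from 0 are counted as reversed. Medians nearer to 0 changed sign 21 times, 4 of them among the moved ones, which are those of capillary markers, carriers, the VEGF list and the TGF-beta list with median-of-ratios size factors. The reversed ones were the smooth muscle list (0.0908 after thinning, 0.0836 without genes of other cells, and -1.30 to 0.248 when 1 library was left out, the highest without cortex replicate 1), the fibroblast list (-0.0380 with 4 capillary genes), the astrocyte list (-0.73 to 0.0163 when 1 library was left out, the highest without hippocampus replicate 1), the Wnt list (-0.0631) and the immediate early list (-0.0018) with median-of-ratios size factors, and the cell cycle list (0.0548 without dividing cells). The causes of these changes were not tested. Of the named genes' values 690 were kept and 58 moved. Genes below 20 CPM rest on few UMIs, and the depth says nothing of spread between animals.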
